A study of Rattus norvegicus with 4 samples.

Results

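The cytosolic ribosome translates mRNA into protein, and its small and large subunits are built from ribosomal RNA and the ribosomal proteins described here. The small subunit reads the mRNA, the large subunit joins the amino acids, and both are assembled in the nucleolus from proteins made in the cytosol. Most ribosomal protein mRNAs begin with a pyrimidine-rich stretch, the 5' terminal oligopyrimidine (TOP) tract, through which the mTOR pathway controls their translation.

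The members were all probe sets with a single gene symbol of the form Rpl or Rps plus a number, Rplp0 to Rplp2, or Rpsa. S6 kinases, pseudogenes and provisional copy symbols were left out. They comprised 50 probe sets for 44 genes of the 10411 single-symbol genes on the day 1 arrays, and 3 probe sets for 3 of 5667 genes on the day 3 arrays, 45 genes in all. The rule used symbols alone and no signal.

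The study compared the rat cochlear lateral wall after 3-NP (3-nitropropionic acid), which blocks succinate dehydrogenase in mitochondria, with the same tissue after saline. Female Sprague-Dawley rats of 8 to 10 weeks and 180 to 210 g were treated through the left round window niche, while the right cochlea was destroyed in all animals, per the labels. The 4 groups, each of 1 array, were saline at day 1, 300 mM 3-NP at day 1, saline at day 3 and 300 mM 3-NP at day 3; the protocol text of all 4 samples also names 500 mM. In the label fields the tissue is in one place the upper basal turn and in another a second turn freed of the stria vascularis, and they do not say how many animals stand behind an array. Day 1 and day 3 were run on separate array designs, so levels are compared only within a day.

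Each group being 1 array, differences could not be set against replicates, and no test was made. The deposited MAS5 signals, an Affymetrix intensity per probe set on a linear scale, had a day 1 median of 44.9 (saline) and 60.7 (3-NP), and a day 3 median of 18.7 (saline) and 19.97 (3-NP). The median measured gene was thus 0.44 higher in 3-NP on the log2 scale at day 1 and 0.10 higher at day 3. Log2 ratios of 3-NP over saline are given relative to that median gene unless they are called as deposited. From genes with several probe sets, the SD of the log2 ratio of a single probe set came to 0.35 on the day 1 arrays, from 744 genes, and 0.47 on the day 3 arrays, from 805, which covers probe sets and not animals or dissections.

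The annotated starts of these genes carried a sequence feature that the choice of members did not use. RefSeq promoter windows of the GRCr8 assembly were found for 40 of the 45 genes, and Rpl7, Rpl23a, Rpl27, Rpl30 and Rps29 were not in the table. The 8 windows below belong to the 4 measured members with the lowest and the 4 with the highest day 1 ratio among those found, and show what such a stretch looks like at either end of that range. Capitals mark the longest run of at least 8 C or T bases within 30 bases of the annotated start; windows in lower case throughout have none.
Rps4y2: tgcgcgcgcagCTCTCCTCactcgcttgtg
Rpl21: gcgcagCCCCTCCCTCTTCCTTTCCgccgg
Rps23: tcctgCCTCTCTTCTCTCTTTCTCTCgggc
Rpl34: gcccgCCCCTTCCTTTTCCTCTTCCgggga
Rpl18: tctggacctggtctagcaggaggcgccatc
Rps3: gcgagccaCTTCCTTTCCTTTCagcggcgc
Rpl6: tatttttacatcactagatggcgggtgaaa
Rpsa: ccggccgcccgTCCTTTCCgcgctaccctg

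These 30-base windows are written 5' to 3' on the gene's strand. They lie at chr4:183000895-183000924 (plus strand) for Rps4y2, chr12:13386155-13386184 (minus) for Rpl21, chr2:23814510-23814539 (plus) for Rps23 and chr2:221962274-221962303 (minus) for Rpl34. The others are at chr1:105325255-105325284 (plus) for Rpl18, chr1:163195776-163195805 (minus) for Rps3, chr12:41011676-41011705 (minus) for Rpl6 and chr8:128728852-128728881 (plus) for Rpsa. Windows with a run are centred on it, and those without one on the annotated start.

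A run of at least 8 C or T within 30 bases of the start was present in 30 of 40 members (75%), against 23.2% of all 33469 promoter windows and 22.8% of those of protein-coding genes. Runs of at least 10 were present in 57.5% of members and 10.6% of all windows, and runs of at least 6 in 85% and 49.7%. The same count for A or G on that strand gave 15% of members and 24.7% of all windows at a length of 8. Over the whole window of 250 bases before and 50 after the start, on either strand, TATAAA was found in 15% of members and 14.2% of all windows, CCGGAAG in 22.5% and 8.75%, and GGGCGG in 62.5% and 33.1%. The run lengths were chosen after the sequences were seen. These are matches of letters in annotated windows. The RefSeq start need not be the one used in this tissue, and no factor or translation was measured.

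At day 1 the ribosomal protein genes stood together above the median gene in the 3-NP array. Of the 44 genes, 41 passed the filter on low signals, which kept genes at or above an array's median signal in at least 1 array of the pair. All 41 had a higher signal in 3-NP as deposited, where 76.9% of all measured genes did. Relative to the median gene 40 of 41 were above it (50% of all 6533 genes by construction). Their median log2 ratio was 0.41, with a range from -0.20 for Rps4y2 to 0.97 for Rpsa, against a median of 0 over all genes.

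The differences were small for each gene. No member was 2-fold higher or lower relative to the median gene, where 7.76% of all genes were 2-fold higher and 6.47% 2-fold lower. A log2 ratio of at least 0.5, a 1.41-fold difference, was reached by 13 of 41 members (31.7%) against 20.4% of all genes, and 0 members lay at -0.5 or below, where 20.1% of all genes did. As deposited 10 members were at least 2-fold higher (17.9% of all genes) and 0 lower (2.62%), while 38 reached 0.5 (45.8%) and 0 reached -0.5 (7.38%). The members' ratios had a narrow spread: the SD of their ratios was 0.23, against 0.78 over all genes and 0.35 for a single probe set, and 37 of 41 lay within 1 such probe set SD of the members' median. The probe set SD came from kept genes of all signal levels and was not computed for bright genes alone. No test was made of this spread.

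**Figure D1:**
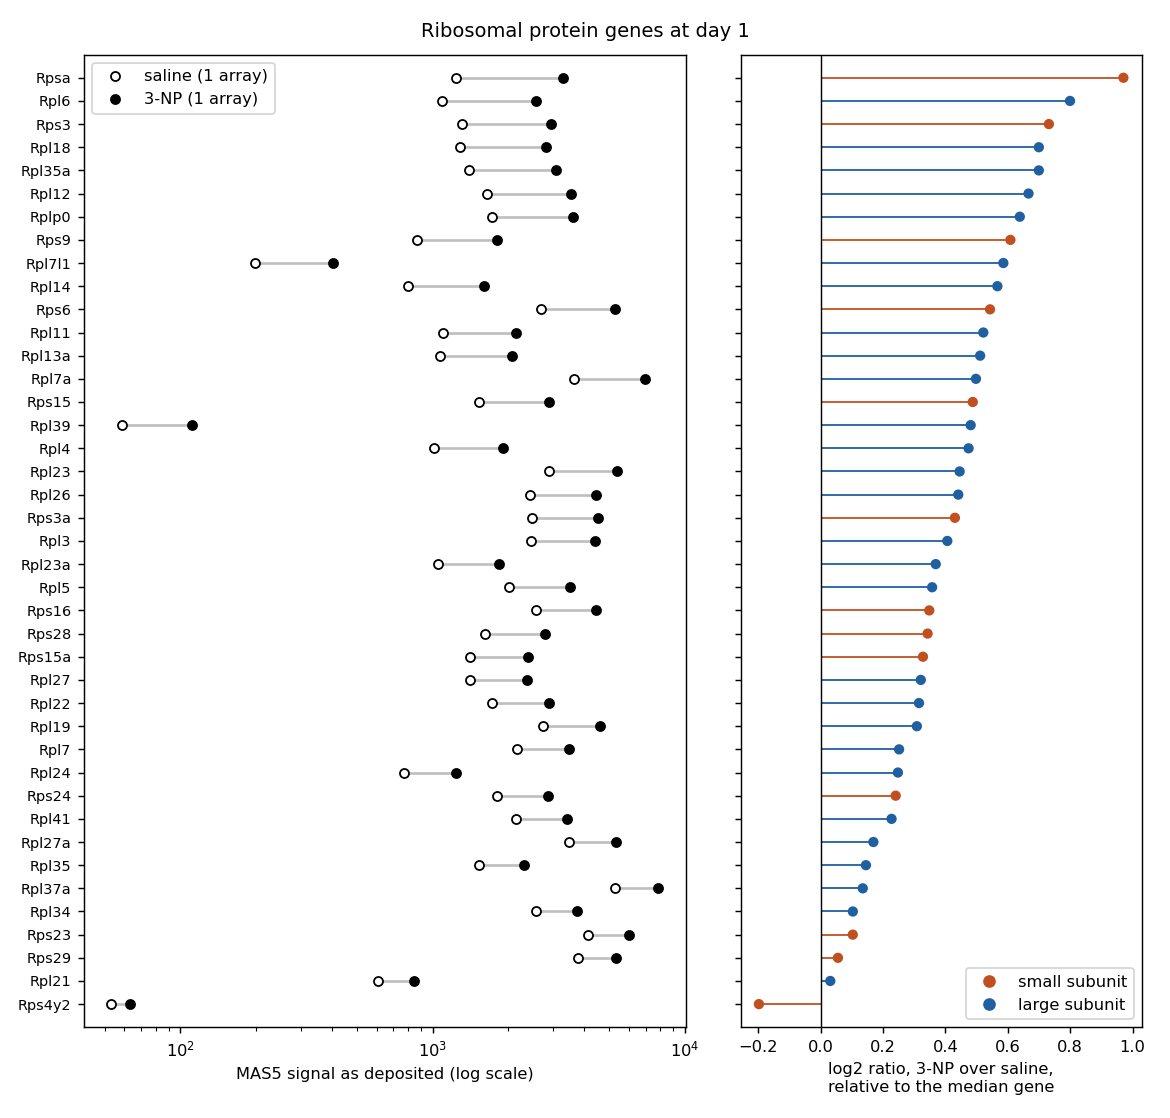
Left, the deposited MAS5 signal (log scale) of each of the 41 measured ribosomal protein genes in the saline (open) and 3-NP (filled) array at day 1; right, the log2 ratio relative to the median gene, coloured by subunit. All 41 filled points lie to the right of the open ones, and ratios run from -0.20 (Rps4y2) to 0.97 (Rpsa).

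Members were mostly bright, and the other bright genes had a median near 0. Of the 41, 38 were among the brightest 10% of measured genes by mean log2 signal. The other 616 genes of that class had a median of -0.068 and an SD of 0.70, 46.4% of them were above the median gene, and 15.4% reached 0.5.

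**Figure D2:**
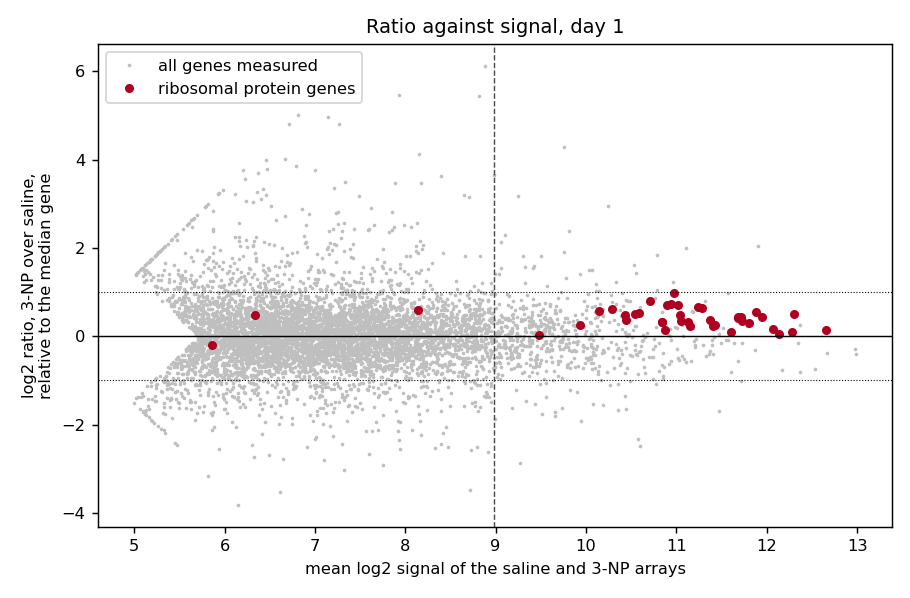
Log2 ratio relative to the median gene (vertical) against mean log2 signal of the 2 day 1 arrays (horizontal) for all 6533 measured genes (grey) and the 41 ribosomal protein genes (red); dotted lines mark 2-fold and the dashed line the start of the brightest 10%. The red points form a narrow band above 0 among bright genes that scatter on both sides.

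Of the small subunit, 13 genes were measured, with a median of 0.35 and an SD of 0.30. Rpsa, a protein of the mRNA exit side that is also known as the laminin receptor precursor, had signals of 1235 in saline and 3281 in 3-NP, a log2 ratio of 0.97, the largest of all members. Rpsa also had further probe sets, from 805 to 2266 (1.05) and from 182 to 444 (0.85), so that its 3 probe sets gave similar values. By their suffixes, these further probe sets may also detect other transcripts.

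Rps3, which lines the mRNA entry channel and also takes part in DNA repair, went from 1310 to 2949 (0.73). Rps9, a protein of early subunit assembly, went from 870 to 1799 (0.61). Rps6, the substrate of the S6 kinases and a common readout of mTOR activity, went from 2691 to 5315 (0.54). These genes and Rpsa were the 4 small subunit genes at 0.5 or above.

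The middle of the small subunit group was close to the members' median. Rps15 went from 1525 to 2899 (0.49), Rps3a from 2489 to 4547 (0.43) and Rps16 from 2576 to 4444 (0.35). Rps28 had 1621 and 2787 (0.34), and Rps15a had 1406 and 2393 (0.33). All of these are components of the mature small subunit, and their ratios differ by less than 1 probe set SD.

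At the lower end, Rps24, which is needed for small subunit rRNA processing, had 1800 and 2883 (0.24). Rps23, a protein of the decoding centre, had 4134 and 6019 (0.10), and Rps29, a small zinc-binding protein, had 3788 and 5337 (0.055). Rps4y2, a paralog in the Rps4 family, was the only measured member below the median gene, with 53.3 and 63.0 (-0.20), close to the limit of the filter. A dimmer Rps24 probe set that did not pass the filter read 5.88 and 33.7; its saline signal was under the floor, so its ratio of 0.54 is a lower bound.

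The large subunit had 28 measured genes, with a median of 0.42 and an SD of 0.20, and all 28 were above the median gene. Small and large subunit medians thus differed by less than the spread within either group. Rpl6 had the highest ratio, with signals of 1088 and 2567 (0.80). Rpl18 followed with 1284 and 2827 (0.70) and Rpl35a, one of the genes mutated in Diamond-Blackfan anaemia, with 1401 and 3084 (0.70).

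Neighbours at the stalk to which elongation factors bind were next. Rpl12, at the base of the stalk, had 1652 and 3554 (0.67), and Rplp0, its central protein, had 1716 and 3620 (0.64). The partner genes Rplp1 and Rplp2 were not among the single-symbol probe sets. Rpl14 had 798 and 1602 (0.57), and a further Rpl14 probe set lay under the floor of either array. Rpl7l1, a paralog of Rpl7, had 198 and 402 (0.59), and 103 and 253 (0.86) by a further probe set.

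Rpl5 and Rpl11 form the 5S particle that, when free, binds Mdm2 and restrains the breakdown of p53. Rpl11 had 1098 and 2136 (0.52), and Rpl5 had 2015 and 3499 (0.36). Rpl26, which can bind the p53 mRNA, had 2426 and 4465 (0.44), and Rpl23, another Mdm2-binding protein, had 2909 and 5370 (0.45). These genes sat close to the members' median, within 1 probe set SD of each other.

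Rpl13a, which is released from the ribosome in interferon-treated cells as part of an mRNA-binding inhibitor complex, had 1072 and 2072 (0.51). Rpl7a had 3639 and 6967 (0.50). Of the proteins along or at the end of the tunnel through which the new chain leaves, Rpl4 had 1009 and 1900 (0.47), Rpl39 had 58.6 and 110.9 (0.48), and Rpl23a had 1050 and 1839 (0.37). Rpl3, next to the peptidyl transferase centre, had 2455 and 4410 (0.41), the median member.

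A further group lay below the members' median. Rpl27 had 1406 and 2380 (0.32), Rpl22 had 1719 and 2900 (0.32) and Rpl19 had 2754 and 4623 (0.31). Rpl7 had 2165 and 3494 (0.25), and 30.4 and 61.7 (0.58) by a far dimmer probe set. Rpl24, which forms a bridge to the small subunit, had 770 and 1239 (0.25), and Rpl41, the shortest ribosomal protein, had 2145 and 3404 (0.23).

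The lowest large subunit genes kept almost the ratio of the median gene. Rpl27a had 3492 and 5322 (0.17), Rpl35, at the tunnel exit, had 1531 and 2296 (0.15), and Rpl37a had 5278 and 7857 (0.13). Rpl34 had 2576 and 3750 (0.10), and Rpl21 had 608 and 842 (0.031). Rpl21 turned to the other side of 0 under quantile normalization and when centred on the probe sets shared by both designs.

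Of the genes not measured at day 1, Rpl30 had 17.3 and 15.5 by its single-symbol probe set, and Rpl3l, a muscle paralog of Rpl3, had 7.27 and 14.1, at the floor in both arrays. Rps27l, a p53-induced paralog of Rps27, had 18.6 and 34.7, above the floor and below the filter, with a log2 ratio of 0.46. Signals of different probe sets are not comparable with each other, so a low signal here need not mean a low transcript level.

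Probe sets that match several symbols were not members, because the rat genome holds many near-identical copies of these genes and such a probe set cannot be given to 1 of them. At day 1 there were 28 whose symbols were all ribosomal protein genes or their copies, and all 28 passed the filter. Their median ratio was 0.43, the range ran from 0.047 to 1.25, all 28 were above the median gene, 11 reached 0.5 (20.4% of all genes) and 2 were 2-fold higher (7.76% of all genes). They were added after the members' values were known. Single-symbol probe sets can also pick up unlisted copies, which the deposited values do not separate.

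The length of the pyrimidine run and the day 1 ratio were set side by side for the 37 measured members with a promoter window. The 28 with a run of at least 8 had a median ratio of 0.40 and the 9 without one 0.52. The 7 members whose run was 18 or longer, a length chosen after the values were seen, had a median of 0.15, against 0.46 for the other 30. Ratios of these 7 ran from 0.031 for Rpl21 to 0.50 for Rpl7a, which had the longest run, of 24. Rpl21 and Rpl39 both had a run of 19, with ratios of 0.031 and 0.48. The longest run and the ratio had a Spearman's rho of -0.36 over these 37 genes, and of -0.42 over 34 without the dim members Rps4y2, Rpl39 and Rpl7l1. Mean log2 signal and the ratio had a rho of -0.22 over the same 37 genes. For the longest run and mean log2 signal it was 0.17. All points share the same 2 arrays, and these values are descriptions.

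Other genes of protein synthesis were described from fixed lists, by count and median beside all genes. Ribosome biogenesis factors, the nucleolar machinery that makes and assembles ribosomes, had a median of 0.86 over 45 measured genes of 72 listed. Of these 18 were 2-fold higher (7.76% of all genes) and 0 lower (6.47%), and 32 (71.1%) reached 0.5, against 20.4% of all genes. Among those 2-fold higher, Ftsj3, Rrs1, Bysl, Gar1, Wdr12 and Ddx21 were under the filter in saline and passed only through the 3-NP array. Ddx21 was at the floor in saline. Fbl, the rRNA methyltransferase fibrillarin, went from 61.9 to 356 (2.09), Rcl1 from 63.5 to 335 (1.96) and Ftsj3 from 27.0 to 141 (1.95). Ncl, the nucleolar protein nucleolin, went from 213 to 523 (0.86), and Nop10 was the lowest with 1128 and 1008 (-0.60).

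Initiation factors, which bring the subunits to the mRNA, had a median of 0.42 over 39 measured genes. Of these 5 were 2-fold higher (7.76% of all genes), 0 lower (6.47%) and 16 (41.0%) at 0.5 or above (20.4%). Eif5a went from 321 to 1283 (1.56), Eif4a1, the cap-complex helicase, from 268 to 1056 (1.54) and Eif1a from 115 to 421 (1.43). Eif6, which holds new large subunits apart from small ones, went from 260 to 816 (1.21), and Eif4ebp1, a repressor of cap-dependent initiation under mTOR control, from 116 to 211 (0.43).

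Elongation and release factors had a median of 0.49 over 11 genes. Of them 0 were 2-fold higher (7.76% of all genes) and 1 was lower (6.47%). The lower one was Eef2k, the kinase that inhibits Eef2, with 62.5 and 36.6 (-1.21). Eef2k was under the filter in 3-NP and passed only through the saline array. Eef1b2 had 921 and 2162 (0.79), Etf1 had 120.3 and 280 (0.78), Eef2 had 682 and 1295 (0.49) and Eef1a1 had 4155 and 6766 (0.26). Rack1, a scaffold protein bound to the small subunit, went from 895 to 2145 (0.82). The 4 measured genes of its list of ribosome-linked genes had a median of 0.24.

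Ribosomal proteins of mitochondria, which form a separate ribosome, lay elsewhere. The 70 measured genes had a median of -0.092, 29 were above the median gene and 41 below it, and 9 (12.9%) reached 0.5, against 20.4% of all genes. The highest were Mrpl38 with 21.8 and 65.4 (1.15) and Mrps18b with 102 and 282 (1.02), and the lowest was Mrpl14 with 90.8 and 72.5 (-0.76). Mrpl38 was under the filter in saline and passed only through the 3-NP array. The 11 measured S6 kinase and mTOR pathway genes had a median of -0.16. None was 2-fold apart (0 higher against 7.76% of all genes, 0 lower against 6.47%), and Tsc2 was furthest from 0 with 166 and 142 (-0.67). As deposited both medians were above 0, at 0.35 and 0.28.

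Of the other complexes compared, the 13 measured genes of the 20S proteasome core had a median of 0.40 and an SD of 0.17, close to the values of the ribosomal proteins. Psma3 had 76.5 and 185 (0.84) and Psma7 had 495 and 1128 (0.75). The list of p53 and ribosomal stress targets had a median of 1.02 over 8 genes. Of these 4 were 2-fold higher (7.76% of all genes) and 1 lower (6.47%), Sesn1 (-1.13). Sesn1 had 94.2 and 58.3, was under the filter in 3-NP and passed only through the saline array. Gadd45b went from 54.3 to 429 (2.55), Cdkn1a, a cell cycle inhibitor, from 118 to 566 (1.83) and Mdm2 from 61.3 to 250.3 (1.59). This median was 0.52 with no filter on dim genes and 1.61 with the filter at the 75th percentile.

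**Figure D3:**
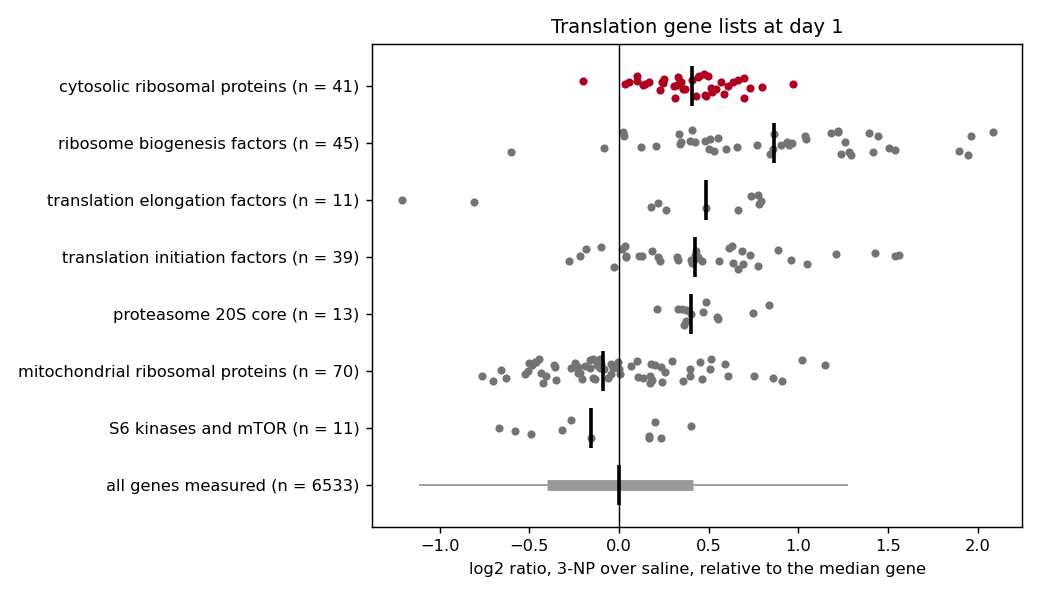
Log2 ratio at day 1 relative to the median gene (horizontal) for each measured gene of 7 lists (points; vertical bars are medians), with all 6533 genes shown as the central 50% (thick bar) and 90% (thin line). Cytosolic ribosomal proteins (median 0.41) and the proteasome core (0.40) form narrow groups, biogenesis factors reach further right (0.86), and mitochondrial ribosomal proteins centre near 0 (-0.092).

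The day 3 arrays carried few members, on dim probe sets. Rpl13a was the only one measured, with 28.1 in saline and 42.0 in 3-NP, a log2 ratio of 0.48, about 1 probe set SD. It was thus just under 0.5, which 22.7% of all 3972 genes reached, with 22.5% at -0.5 or below. As deposited its log2 ratio was 0.58, where 55.7% of genes were higher, 26.6% reached 0.5 and 10.9% were 2-fold higher. At day 1 another Rpl13a probe set gave 0.51. Rpl24 had 12.5 and 12.8 and did not pass the filter, and its day 1 ratio was 0.25. Rpl28 had 2.08 and 19.6, at the floor in saline and below the filter, with a bound of at least 0.99.

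The provisional copies Rpl27al2 (91.8 and 74.6, ratio -0.40) and Rpl39l1 (3.87 and 13.2, below the filter) were left out by the rule. Of 4 probe sets with several ribosomal protein symbols 2 passed the filter at day 3, one at 1.11 and the other at -1.07. The day 3 arrays therefore hold too few values for a statement on the group.

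More genes of the other lists were measured at day 3. Biogenesis factors had a median of 0.58 over 24 genes, with 8 of them 2-fold higher (9.21% of all genes) and 0 lower (8.18%). Nop56, a box C/D small nucleolar RNP protein, went from 11.0 to 62.2 at day 3 (2.40) and from 123 to 486 at day 1 (1.54), and Wdr43 from 20.2 to 64.3 at day 3 (1.57). The day 3 saline signal of Nop56 was under the filter, so it passed only through the 3-NP array. Initiation factors had a median of 0.46 over 18 genes, with 2 of them 2-fold higher and 0 lower. One of the higher genes, Eif4e, was at the floor in saline. Mitochondrial ribosomal proteins had a median of 0.10 over 15 genes. The S6 kinase and mTOR list had 2 measured genes, both 2-fold higher: the kinase Rps6ka3 with 15.5 and 36.6 (1.14) and the stress-induced Sesn2 with 56.0 and 156.7 (1.38). Rps6ka3 was under the filter in saline and passed only through the 3-NP array. The 2 days used separate arrays and partly separate genes, and their difference was not tested.

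In the same day 1 arrays the markers of the tissue and of other cells also differed. Counts are relative to the median gene, where 7.76% of all genes were 2-fold higher and 6.47% 2-fold lower at day 1. At day 3 these shares were 9.21% and 8.18%. Summed signals are as deposited. They carry the shift of the median gene in 3-NP, a log2 ratio of 0.44 at day 1 and 0.10 at day 3. All 11 spiral ligament fibrocyte markers on the array were measured, 5 were 2-fold lower and 0 higher, and their summed signal was 13103 in saline and 8258 in 3-NP. Of 8 measured stria vascularis and melanocyte markers 6 were 2-fold lower and 0 higher (9 on the array, summed 4729 and 2823, with 1 at the floor in both arrays), although one label field excludes the stria. Of 6 measured macrophage markers 2 were 2-fold higher (12 on the array, summed 1564 and 3183, 4 at the floor in saline and 3 in 3-NP). Of the higher ones, Cd14 was just under the filter in saline and passed only through the 3-NP array. Of 7 measured endothelial and mural markers 4 were 2-fold higher and 1 lower (13 on the array, summed 725 and 1344, 3 at the floor in saline and 0 in 3-NP). Among the higher ones, Plvap and Mcam were at the floor in saline and passed the filter only through the 3-NP array. The lower one, Rgs5, was under the filter in 3-NP and passed only through the saline array. Of 3 measured neutrophil markers, Lcn2 had 122 and 2093 (3.66), S100a9 had 74.6 and 128 (0.34) and S100a8 had 64.2 and 55.5 (-0.65), so that Lcn2 made up most of their summed signal in 3-NP (4 on the array, summed 263 and 2279). Lymphocyte markers were at the floor for 7 of 8 genes in saline and 5 of 8 in 3-NP, and bone and cartilage markers were 2-fold lower for 7 of 9. Of these lower bone and cartilage markers, Ibsp, Omd and Acan were under the filter in 3-NP and passed only through the saline array. Both measured erythrocyte markers reached 0.5, as did 20.4% of all genes (3 on the array, summed 3832 and 7521). Of 11 measured neuron and Schwann cell markers 3 were 2-fold higher and 1 lower (summed 9133 and 11274). Among the higher ones, Prph and Tubb3 were under the filter in saline and passed only through the 3-NP array. In addition, 3 of 3 measured skeletal muscle markers were above the median gene, where 50% of all genes lay (11 on the array, 6 at the floor in saline and 5 in 3-NP). The 1 measured organ of Corti marker was 2-fold lower. At day 3 the 2 measured macrophage markers were both 2-fold lower (summed 95.7 and 56.5). Of these, Cd163 was under the filter in 3-NP and passed only through the saline array. Of 2 fibrocyte markers, both below the median gene, 1 was 2-fold lower (summed 6917 and 5854). Of 6 stria markers 3 were 2-fold lower and 1 was 2-fold higher (summed 4007 and 2337). The higher one, Tyrp1, had a saline signal at the floor. Bsnd, among the lower ones, was under the filter in 3-NP and passed only through the saline array. The part of these shifts in the ribosomal protein ratios was not tested, and in tissue RNA fewer cells of a type and less RNA per cell cannot be told apart. For RNA quality, Actb control probe sets gave 3' to 5' ratios of 2.69 (saline) and 2.53 (3-NP) on the day 1 arrays and of 3.22 and 2.79 on the day 3 arrays. Those of Gapdh were 1.34 and 1.46 at day 1, in the other direction, and 1.26 and 1.17 at day 3.

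**Figure D4:**
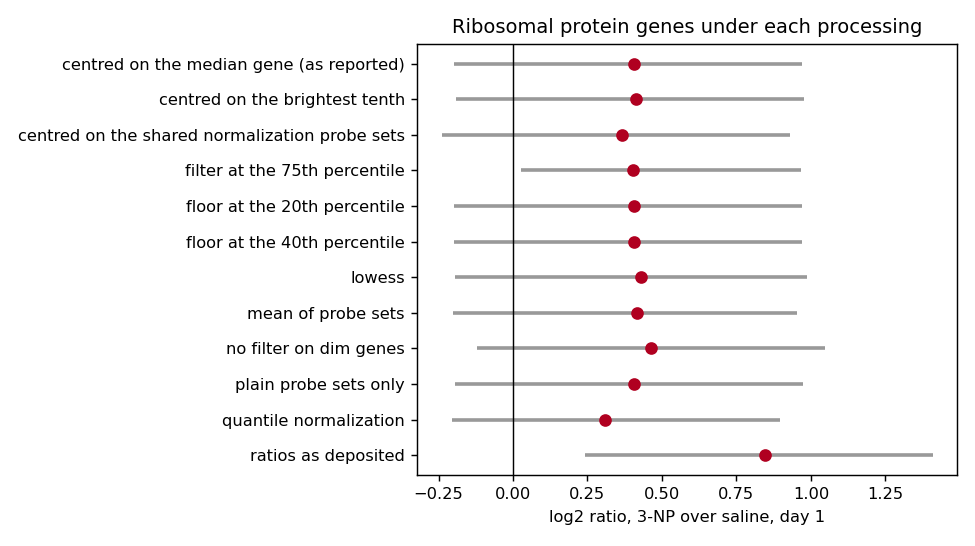
Median (points) and range (lines) of the day 1 log2 ratios of the measured ribosomal protein genes under each processing. The median stays between 0.31 and 0.46 for ratios with some form of scaling and is 0.84 as deposited.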

How the data were processed

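The deposited values are MAS5 signal intensities per probe set, per the submitters' processing notes; its version and scaling target: not given in the sources used here. Each table, as deposited, covers all arrays of a day, with 15923 probe sets at day 1 and 15333 at day 3, 57 of them controls in each. Symbols came from the platform annotation, updated by gene identifier to RefSeq (GRCr8); 2 member probe sets, of Rps9 and Rpl37a, kept the annotation's symbol. Signals under an array's 30th percentile (17.1 and 22.0 at day 1, 9.22 and 9.85 at day 3) were raised to it. A probe set was kept if it reached the 50th percentile in 1 array of the pair, and each gene was represented by its brightest kept probe set by mean log2 signal, leaving 6533 and 3972 genes. With 1 array per group there is no test; the number of arrays limits the precision. Members named by rule were the 8 highest and 8 lowest at day 1, those 2-fold apart, those measured at day 3 and a panel; the other members were added so that each measured gene is shown. For lists, the rule took up to 3 genes furthest from 0 and a short panel; Nop10, Eif6, Etf1, Mrpl14, Sesn1, Eif4g1, Eif2s3, Gspt1, the neutrophil markers and, at day 1, Mdm2 and Nop56 were added after their values were seen. Members and lists were chosen with earlier results of these data known. The steps were checked on simulated arrays and run in Python 3.11.15 with pandas 2.3.3 and statsmodels 0.14.6 (lowess, fraction 0.4). Alternatives changed the scaling, floor, filter and probe set choice.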

Additional observations from a re-analysis of the deposited data

Results flagged for a closer look

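Lists of at least 5 measured genes on both days, and genes beyond 1 probe set SD on both, were singled out where they lay on opposite sides of the median gene at day 1 and day 3; these differences were not tested, since each rests on 1 pair of arrays per day and on separate probe sets. The median of the mitochondrial ribosomal proteins was -0.092 over 70 genes at day 1 and 0.10 over 15 genes at day 3, both within 1 probe set SD of 0. That SD describes 1 probe set and not the spread of a median over genes. Psmb5, a proteasome core gene, had a relative log2 ratio of 0.47 at day 1 (820 and 1537) and of -1.34 at day 3 (23.3 and 3.06), where its 3-NP signal was at the floor. Outside those limits, with 2 genes each at day 3, the S6 kinase and mTOR list had medians of -0.16 and 1.26 and the proteasome core of 0.40 and -0.39. Within 1 probe set SD at day 3, Eif4g1 had ratios of 0.64 and -0.36, Eif2s3 of 0.66 and -0.29, and Gspt1 of 0.74 and -0.12.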

How the results depend on the processing

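Relative to the median gene, the day 1 median of the ribosomal protein genes was 0.41; it was 0.31 under quantile normalization, 0.37 centred on the 100 probe sets both designs share, 0.43 with lowess and 0.46 with no filter. As deposited, the median was 0.84 (small subunit 0.79, large subunit 0.86), 10 genes were at least 2-fold higher and 38 reached 0.5. With no filter on dim genes 1 was 2-fold higher, Rpsa, and 21 reached 0.5 (against 0 and 13), with 44 genes in place of 41 and a median gene shifted by 0.36 in place of 0.44. Without the paralogs Rps4y2 and Rpl7l1, chosen after seeing the data, the median was 0.41 and 12 of 39 reached 0.5. At day 3, where Rpl13a alone was measured, 1 gene reached 0.5 as deposited, when centred on the brightest 10% and with no filter, and 2 of 3 were above the median gene with no filter; with the filter at the 75th percentile no member was left. No paired analysis was possible because each group has 1 array.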
